A study of Mus musculus with 4 samples.

Results

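The collagen genes are taken here as the 44 of 31054 measured features whose symbol reads Col, a number, the letter a and another number, such as Col1a1 or Col6a3. They were counted as unique molecular identifiers (UMIs, each standing for 1 captured RNA molecule) in single cells of mouse mammary tumours, by 3' droplet sequencing. The treated groups are T11-Apobec tumours in Balbc mice and KPB25Luv tumours in FVB/NJ mice that received anti-PD1 (10 mg/kg) with anti-CTLA4 (100 µg), antibodies that block checkpoints on T cells, for 7 days from a tumour diameter of 5 mm. The untreated groups are tumours of the same 2 models with no therapy. All hosts were female mice injected with tumour cells in mammary gland number 4, so both the untreated and the treated tumours are transplants. Each of the 4 groups has 1 library, and the number of mice behind a library is not given in the sources used here, so no difference below has a replicate check and no p-value is given. Intervals are exact and cover the counting of molecules only.

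Collagens are the main structural proteins of the matrix between cells. Their chains wind around each other into a helix, and types differ by which chains combine: fibril-forming types such as I, III and V build the fibres of connective tissue, type IV builds the sheet-like network of basement membranes, type VI builds beaded filaments near cells, and types XV and XVIII (the multiplexins) lie in basement membranes and release fragments that act on vessels. In solid tumours the fibrillar types are known chiefly as products of fibroblasts and the type IV chains as products of endothelial cells and the cells around them, while tumour cells of mesenchymal kind can make fibrillar collagens themselves.

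Cells were named by fixed sets of marker genes that contain no collagen. Tumour cells of T11-Apobec were the cells that passed the mesenchymal set without a fibroblast, pericyte, endothelial or epithelial identity (674 treated, 4934 untreated), and those of KPB25Luv were the cells that passed the epithelial set (49 treated, 1739 untreated). The neomycin resistance transcript that the T11-Apobec feature list carries was found in 50% of treated and 28.3% of untreated T11-Apobec tumour cells. Median UMIs per tumour cell were 25410 and 12309.5 in treated and untreated T11-Apobec, and 25288 and 22385 in treated and untreated KPB25Luv. The libraries held 5812 and 9388 kept cells in treated and untreated T11-Apobec, and 5041 and 6124 in treated and untreated KPB25Luv, from 30369476 to 98475778 UMIs per deposited library. Of the 26365 kept cells, 353 carried a barcode found in more than 1 library. Fibroblasts numbered 74 in untreated T11-Apobec and 38 in untreated KPB25Luv, but 6 and 4 in the treated libraries of T11-Apobec and KPB25Luv, too few for a level, so treated and untreated fibroblasts cannot be compared. The 4 treated KPB25Luv fibroblasts held 2211 of that library's 7107 collagen UMIs (31.1%). The 18 treated T11-Apobec cells that passed the endothelial set are not used: 8 carried the neomycin resistance transcript, and the endothelial markers Pecam1 and Cdh5 stood at 104 CPM and 134 CPM, against 530.5 CPM and 636 CPM in untreated T11-Apobec endothelial cells. In untreated KPB25Luv 1104 cells, with 35.4% of the library's collagen UMIs, passed no single set and were left unnamed. In treated KPB25Luv 69 cells, with 37.1% of the collagen UMIs, were left unnamed, while the 49 tumour cells held 22.1%.

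The collagen counts were unequal between genes. Col1a2, the second chain of type I, was highest with 76617 UMIs over the 4 libraries, followed by Col3a1 (the chain of type III) with 52017, Col18a1 (type XVIII, the source of endostatin) with 34430, Col6a1 with 24427, Col1a1 (the first chain of type I) with 21027 and Col8a1 (a network-forming chain of type VIII) with 20226. Together with Col5a2, Col6a3, Col6a2, Col4a2, Col5a3 and Col4a1, these 12 genes held 93.4% of all collagen UMIs. Col19a1 (2 UMIs), Col2a1 (the cartilage chain, 4 UMIs), Col6a6 (4), Col26a1 (6), Col28a1 (7), Col4a6 (8) and Col9a2 (9) were close to 0 in all libraries, and no level is given for them. Over all kept cells the collagen genes together made 734 counts per 1000000 UMIs (CPM) in treated and 2380 CPM in untreated T11-Apobec, and 251 CPM in treated and 784 CPM in untreated KPB25Luv. Across all kept cells 25 of 33 measured collagens were more than 1.5-fold lower in treated T11-Apobec and 4 higher, where 19.2% of all genes tested were lower and 21.7% higher. In treated KPB25Luv 21 of 31 were lower and 4 higher, where 36.5% of all genes tested were lower and 26.5% higher, with an all-gene median log2 ratio of -0.16. A collagen counts as measured with at least 10 UMIs in both libraries or classes together. The captured cell mix moved with these sums: tumour cells were 674 of 5812 treated and 4934 of 9388 untreated T11-Apobec cells, and more cells of a type and more RNA per cell cannot be told apart in such sums. The levels below are therefore given within cell classes.

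Fibroblasts had the highest collagen level of any class. In untreated libraries the collagen genes summed to 22510.3 CPM in T11-Apobec fibroblasts and 11282 CPM in KPB25Luv fibroblasts, against 2553 CPM in T11-Apobec tumour cells and 649 CPM in KPB25Luv tumour cells. A stricter gate (5 UMIs from 3 markers) gave 31191 CPM in T11-Apobec and 7060.0 CPM in KPB25Luv fibroblasts. Type I and type III chains stood at about the same level as each other: Col1a2 had 5811 CPM, Col1a1 5689 CPM and Col3a1 5517 CPM in T11-Apobec fibroblasts, and Col3a1 had 2680.3 CPM, Col1a2 2576 CPM and Col1a1 2441 CPM in KPB25Luv fibroblasts. The type VI chain Col6a1 (1108 CPM in T11-Apobec, 696 CPM in KPB25Luv) and the type V chain Col5a2 (1014 CPM in T11-Apobec, 481 CPM in KPB25Luv) followed. Fibril-forming collagens made 81.9% of the collagen UMIs of T11-Apobec fibroblasts and 76.5% of those of KPB25Luv fibroblasts. Set against tumour cells of the same untreated library, 27 of 30 measured collagens were more than 1.5-fold higher and 1 lower in T11-Apobec fibroblasts, where 34.4% of all genes tested were higher and 14.5% lower. In KPB25Luv fibroblasts 23 of 27 were higher and 2 lower than in tumour cells, where 29.2% of all genes tested were higher and 17.4% lower. Of the higher collagens, 21 in T11-Apobec and 20 in KPB25Luv had an interval above 0. Of the lower collagens, 0 had an interval below 0 in either model. The median log2 ratio of the measured collagens was 3.14 in T11-Apobec and 3.59 in KPB25Luv, against 0.22 and 0.09 for all genes. Col4a5, a minor type IV chain, was the 1 lower gene in T11-Apobec, with 4.69 CPM in fibroblasts and 9.01 CPM in tumour cells. The fibroblast value rests on 3 UMIs, and its interval of 0.97 to 13.7 CPM covers the tumour-cell level. Col18a1 was at 200.1 CPM in fibroblasts and 291 CPM in tumour cells.

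The KPB25Luv fibroblast class is less clean than that of T11-Apobec. The keratin transcript Krt8 stood at 991 CPM in these 38 cells, against 217 CPM in T cells of the same library, and 14 of the 38 held any Col1a2 UMI. When Krt8 and Krt18 were added to the epithelial set, 4 of the cells remained fibroblasts, and they held 15 Col1a1, 19 Col1a2 and 6 Col3a1 UMIs. How far tumour cells or joined droplets enter this class was not tested. In T11-Apobec fibroblasts thinned to 1000 UMIs per cell, a Col1a2 UMI was present in 82.4% of cells (100% unthinned, median depth 7556.5 UMIs), against 2.79% of T cells (6.46% unthinned, median depth 1765.5 UMIs), which should lack the gene.

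Where fibroblasts of the untreated models differed, most collagens were higher in T11-Apobec. Of 22 measured collagens 12 were more than 1.5-fold higher and 2 lower in T11-Apobec than in KPB25Luv fibroblasts, where 24.1% of all genes tested were higher and 25.2% lower. The log2 ratio of T11-Apobec over KPB25Luv was 1.22 for Col1a1, 1.17 for Col1a2 and 1.68 for Col4a2. Col7a1, which forms anchoring fibrils under epithelia, had 216 CPM in T11-Apobec fibroblasts and a log2 ratio of 2.33. Col5a3, the third chain of type V, went the other way with 61.0 CPM in T11-Apobec and 179 CPM in KPB25Luv fibroblasts (log2 ratio -1.54), while Col5a1 and Col8a1 differed little (0.21 and 0.12). The median over the measured collagens was 0.65, against -0.02 for all genes, and the Krt8 level above applies to each of these KPB25Luv values.

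**Figure D1:**
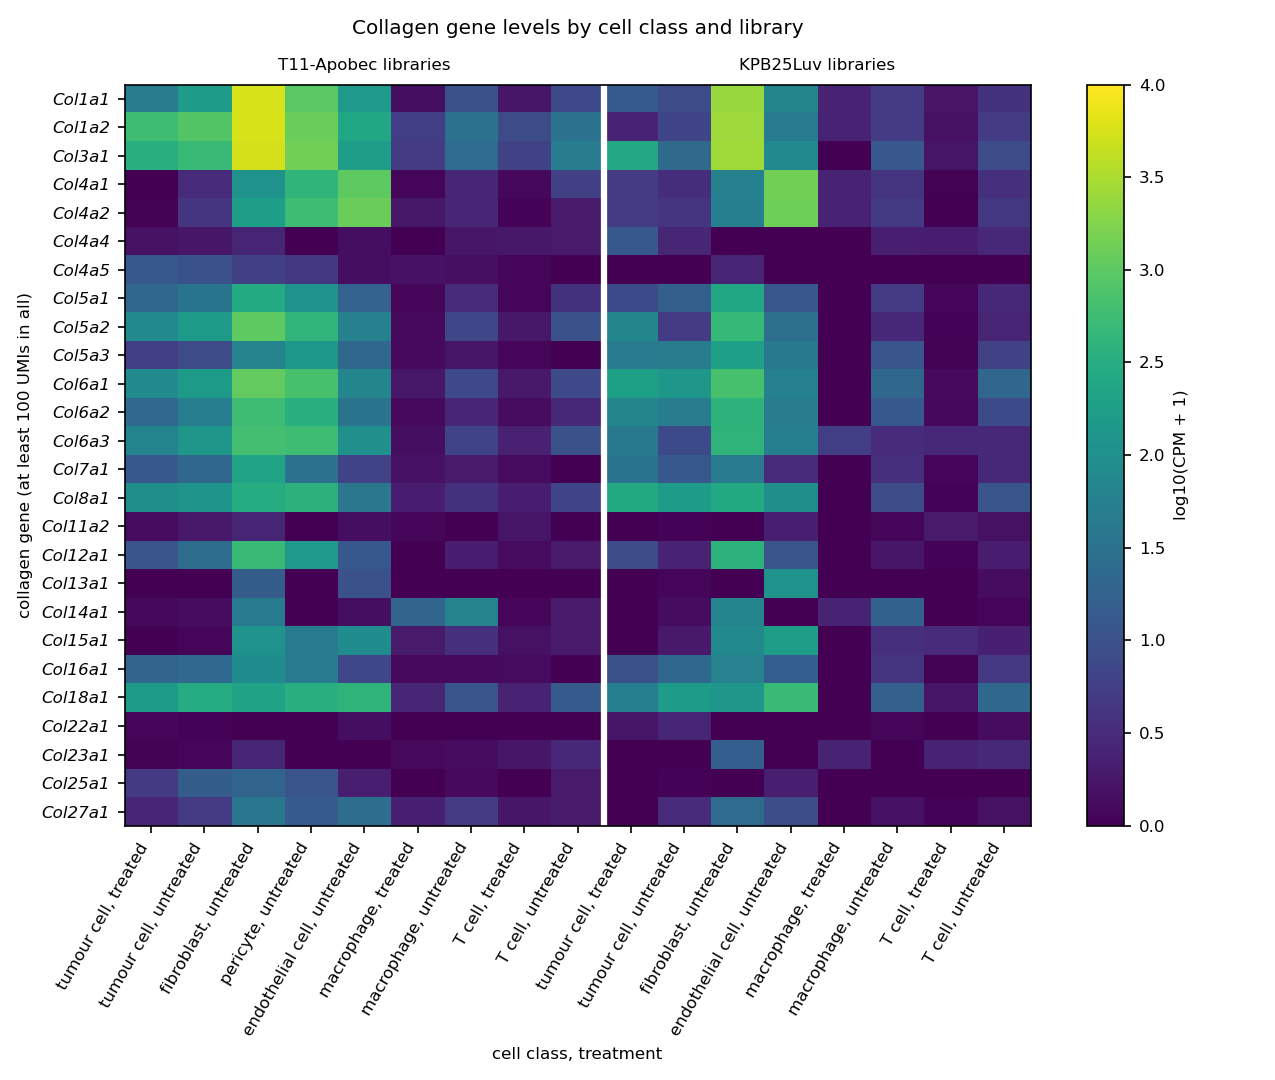
Heat map of log10(CPM + 1) for the collagen genes with at least 100 UMIs in all (rows) in each cell class and library with at least 20 cells (columns), T11-Apobec on the left and KPB25Luv on the right of the white line. Col1a1, Col1a2 and Col3a1 are brightest in fibroblasts, Col4a1 and Col4a2 in endothelial cells, and the T-cell columns are dark.

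Pericytes, the contractile cells around small vessels, were measured in untreated T11-Apobec only (43 cells, of which 6 carried the neomycin resistance transcript). Their marker Rgs5 stood at 1956 CPM, against 325 CPM in endothelial cells of the library. They carried both fibrillar and basement membrane chains: Col3a1 1422 CPM, Col1a2 1215 CPM, Col1a1 939 CPM, Col6a1 676 CPM, Col6a3 569 CPM, Col4a2 562 CPM and Col4a1 407 CPM. Fibril-forming collagens made 54.8% of the pericytes' collagen UMIs, between the 81.9% of fibroblasts and the 18.1% of endothelial cells in the same library.

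Endothelial cells were the main carriers of type IV. Col4a2 had 1272 CPM in untreated T11-Apobec and 1309 CPM in untreated KPB25Luv endothelial cells (log2 ratio -0.04), and Col4a1, its partner chain, had 1000.4 CPM in T11-Apobec and 1401 CPM in KPB25Luv (log2 ratio -0.49). After thinning to 1000 UMIs a Col4a1 UMI was present in 64.4% of T11-Apobec and 69.0% of KPB25Luv endothelial cells. Against tumour cells of the untreated T11-Apobec library the log2 ratio was 8.90 for Col4a1 and 8.66 for Col4a2. It was 9.22 for Col15a1 (a multiplexin) and 7.88 for Col13a1 (a membrane-spanning collagen). For Col15a1 endothelial cells held 216 UMIs and tumour cells 9, and for Col13a1 endothelial cells held 22 and tumour cells 2. With so few tumour-cell UMIs the sizes of the Col15a1 and Col13a1 ratios are uncertain. For Col18a1, which tumour cells also carried, the log2 ratio was 0.45. In that comparison 7 of 29 measured collagens were higher and 13 lower in endothelial cells, where 28.9% of all genes tested were higher and 21.8% lower. The network-forming collagens made 62.4% of endothelial collagen UMIs in T11-Apobec and 69.1% in KPB25Luv.

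Between the models, 7 of 19 measured collagens were higher and 5 lower in T11-Apobec endothelial cells, where 16.5% of all genes tested were higher and 18.7% lower. Higher were Col1a2, with 236 CPM in T11-Apobec and 44.4 CPM in KPB25Luv (log2 ratio 2.40), and Col27a1, a fibril-forming chain of cartilage and other tissues, with 26.7 CPM in T11-Apobec and 7.96 CPM in KPB25Luv (1.65). Lower in T11-Apobec were Col13a1, with 8.75 CPM against 107 CPM in KPB25Luv (-3.59), Col8a1, with 37.0 CPM against 97.9 CPM in KPB25Luv (-1.40), and Col15a1, with 86.0 CPM against 166 CPM in KPB25Luv (-0.95). The Col1a2 value in T11-Apobec came from 99 of 375 endothelial cells, with 86.2% of its 594 UMIs in the 10% of cells that held most.

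In T11-Apobec the tumour cells carried most of the collagen captured, with 84.1% of the treated and 85.0% of the untreated library's collagen UMIs. Their profile was fibrillar: fibril-forming collagens made 69.0% of the collagen UMIs in treated and 67.2% in untreated tumour cells. Col1a2 led with 574 CPM in treated and 836 CPM in untreated cells, followed by Col3a1 with 325 CPM in treated and 519.5 CPM in untreated cells and Col18a1 with 149 CPM in treated and 291 CPM in untreated cells. In KPB25Luv tumour cells fibril-forming collagens made 36.2% of the collagen UMIs in treated and 16.4% in untreated cells. Col18a1 (52.1 CPM treated, 154 CPM untreated), Col8a1 (263 CPM treated, 153 CPM untreated) and Col6a1 (189 CPM treated, 131 CPM untreated) led there among untreated cells. Set against lymphocytes of the same library (T and B cells, whose UMIs of the abundant collagens serve as a measure of free RNA), 16 of 29 measured collagens in untreated T11-Apobec tumour cells and 15 of 26 in untreated KPB25Luv tumour cells were more than 1.5-fold above, with an interval above 0. The rest were not past that rule, which on few lymphocyte UMIs does not place them at background: Col27a1 in untreated T11-Apobec had 269 UMIs (4.09 CPM) in tumour cells and 1 UMI (0.861 CPM) in lymphocytes. Within 1.5-fold of lymphocytes or below them were Col4a1 in untreated T11-Apobec (2.08 CPM in tumour cells, 4.31 CPM in lymphocytes), and in untreated KPB25Luv Col1a2 (5.82 CPM in tumour cells, 3.90 CPM in lymphocytes) and Col4a1 (2.33 CPM in tumour cells, 2.44 CPM in lymphocytes). The values of these genes are not read as tumour-cell levels, and their source was not tested. Of the 232 Col1a2 UMIs in untreated KPB25Luv tumour cells, 67 came from 1 cell.

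Untreated tumour cells of the models differed widely in several fibrillar chains and in Col4a5 and Col25a1. Of 33 measured collagens 18 were more than 1.5-fold higher and 8 lower in T11-Apobec than in KPB25Luv, where 24.8% of all genes tested were higher and 35.3% lower. The median log2 ratio of the measured collagens was 0.92, against -0.14 for all genes. These counts moved with the processing: 11 were higher and 2 lower with cells thinned to 1000 UMIs, 3 lower at 50 UMIs, 5 lower with the lymphocyte level subtracted and 14 lower with no minimum, and the median was 1.66 with subtraction and 0.11 with no minimum. Col1a2 had 836 CPM in T11-Apobec and 5.82 CPM in KPB25Luv tumour cells (log2 ratio 7.16), and 67 of the 232 KPB25Luv UMIs came from 1 cell. The KPB25Luv value was within 1.5-fold of lymphocytes and is not read as a tumour-cell level, so the size of this ratio is uncertain. Col3a1 had 519.5 CPM in T11-Apobec and 23.0 CPM in KPB25Luv (4.495), Col1a1 had 159 CPM in T11-Apobec and 7.30 CPM in KPB25Luv (4.44), and Col5a2, a type V chain that assembles into type I fibrils, had 151 CPM in T11-Apobec and 3.94 CPM in KPB25Luv (5.26). Col25a1, a membrane-spanning collagen found in brain amyloid plaques in humans, had 13.9 CPM in T11-Apobec and 0.0752 CPM in KPB25Luv (7.30). Col4a5 had 593 UMIs in T11-Apobec and none in KPB25Luv tumour cells, at least 120-fold higher with a floor of 3 UMIs over the class. Col6a3, the long chain of type VI, followed the fibrillar genes with 132 CPM in T11-Apobec and 7.05 CPM in KPB25Luv (4.23).

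Its partner chains did not. Col6a1 had 148 CPM in T11-Apobec and 131 CPM in KPB25Luv tumour cells (log2 ratio 0.18), and Col6a2 had 50.8 CPM in T11-Apobec and 49.2 CPM in KPB25Luv (0.05). Col8a1, with 117 CPM in T11-Apobec and 153 CPM in KPB25Luv (-0.39), was also within 1.5-fold. Col5a3 was lower in T11-Apobec, with 7.17 CPM against 48.8 CPM in KPB25Luv (-2.77, interval -2.92 to -2.62), the opposite of Col5a2 within the same type. The models differ in host strain as well as in tumour line, and these cannot be told apart.

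Sequence before the transcription start is shown for 2 genes that differed widely between the models, Col1a2 and Col3a1, and 2 that were near level, Col6a1 and Col8a1. The sequences are those before the RefSeq start on GRCm38.p6, 5' to 3' on the gene's strand, and annotated exons were removed. Capitals mark the letters GGGCGG, the core of the binding site of SP1-type factors, which read CCGCCC when they lie on the opposite strand, and the TATA-box letters TATAAA.
Col1a2: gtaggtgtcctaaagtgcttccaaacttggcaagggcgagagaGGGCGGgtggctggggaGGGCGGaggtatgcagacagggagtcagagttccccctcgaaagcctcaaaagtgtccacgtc
Col3a1: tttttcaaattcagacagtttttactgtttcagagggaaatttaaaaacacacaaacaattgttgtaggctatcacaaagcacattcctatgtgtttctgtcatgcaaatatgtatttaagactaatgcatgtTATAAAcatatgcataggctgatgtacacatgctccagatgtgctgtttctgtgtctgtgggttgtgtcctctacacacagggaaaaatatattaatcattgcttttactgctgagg
Col6a1: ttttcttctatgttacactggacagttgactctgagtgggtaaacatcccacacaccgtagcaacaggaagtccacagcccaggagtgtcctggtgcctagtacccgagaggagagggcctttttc
Col8a1: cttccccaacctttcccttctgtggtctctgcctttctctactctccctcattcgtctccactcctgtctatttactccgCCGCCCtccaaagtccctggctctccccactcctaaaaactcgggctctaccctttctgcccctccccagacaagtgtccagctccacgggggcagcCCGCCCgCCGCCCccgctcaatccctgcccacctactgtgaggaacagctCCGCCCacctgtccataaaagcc
The Col1a2 stretch (chr6:4505370-4505492, plus strand, which lies inside the longer span that GENCODE gives this gene, from base 4504814) holds GGGCGG in 2 places, the Col3a1 stretch (chr1:45311288-45311537, plus strand) holds TATAAA in 1, the Col8a1 stretch (chr16:57754738-57754987, minus strand) holds CCGCCC in 4, and the Col6a1 stretch (chr10:76726169-76726294, minus strand) holds neither. GGGCGG on either strand was present in 22 of 38 collagen windows of 250 bases (57.9%), against 32.7% of 32851 windows of all genes. TATAAA was present in 5 of 38 (13.2%), against 12.4% of all windows, and CCAAT in 13 of 38 (34.2%), against 33.8% of all windows. The stretches differ in length after exons were removed. They cover bases 248 to 126 before the start for Col1a2 and 250 to 125 for Col6a1. For Col3a1 and Col8a1 they cover bases 250 to 1. The bases nearest the start are thus missing for Col1a2 and Col6a1, and the window shares were taken with exons kept. These matches describe letters only.

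**Figure D2:**
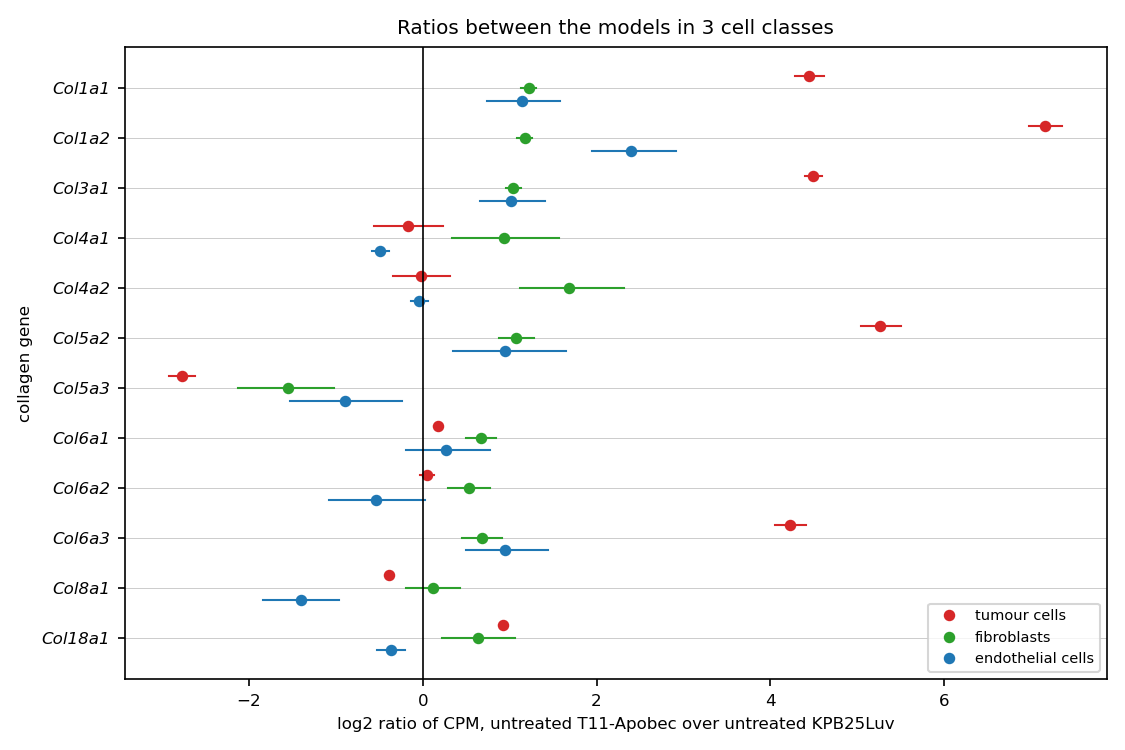
Log2 ratio of CPM, untreated T11-Apobec over untreated KPB25Luv (x axis), for the 12 collagens with the most UMIs (y axis) in tumour cells (red), fibroblasts (green) and endothelial cells (blue), with 95% counting intervals. In tumour cells Col1a2 (7.16), Col5a2 (5.26) and Col3a1 (4.495) stand far right while Col6a1 and Col6a2 lie near 0 and Col5a3 (-2.77) lies left. The Col1a2 value of KPB25Luv and the Col4a1 values of both models are within 1.5-fold of lymphocytes or below them and are not read as tumour-cell levels.

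The balance of chains that share a type also differed by class. Type I is assembled from Col1a1 and Col1a2 chains, and the Col1a1 share of their summed UMIs was 49.5% (48.3 to 50.6) in untreated T11-Apobec fibroblasts, 43.6% in pericytes, 37.9% in endothelial cells and 48.7% in KPB25Luv fibroblasts. The endothelial share rests on few cells: 60 of 375 held Col1a1, with 93.9% of its UMIs in the top 10% of cells, and 99 held Col1a2. In T11-Apobec tumour cells it was 7.6% (7.1 to 8.1) in treated and 16.0% (15.7 to 16.3) in untreated cells, so these cells carried far less Col1a1 than Col1a2 RNA. A 3' tag count is not scaled by transcript length, so a share of UMIs is a share of captured molecules. In KPB25Luv tumour cells, where both genes were low, 18 of 20 UMIs in treated cells and 55.6% in untreated cells were Col1a1. Col1a2 there was not past the lymphocyte level by 1.5-fold with an interval above 0 in either library, so these shares are not read as a chain balance of tumour cells. The Col6a1 share of Col6a1 and Col6a2 kept to a narrower range: 79.1% in treated and 74.5% in untreated T11-Apobec tumour cells, 73.5% in treated and 72.8% in untreated KPB25Luv tumour cells, 66.2% in T11-Apobec fibroblasts and 64.0% in KPB25Luv fibroblasts. Col5a3 made 5.3% of Col5a3 and Col5a2 UMIs in treated and 4.5% in untreated T11-Apobec tumour cells and 5.7% in T11-Apobec fibroblasts, against 40.5% in treated and 92.5% (91.3 to 93.6) in untreated KPB25Luv tumour cells and 27.2% in KPB25Luv fibroblasts. Each KPB25Luv fibroblast share comes from the less clean class described above, which most cells left when Krt8 and Krt18 were added. Col4a1 made 44.0% of Col4a1 and Col4a2 UMIs in T11-Apobec and 51.7% in KPB25Luv endothelial cells.

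**Figure D3:**
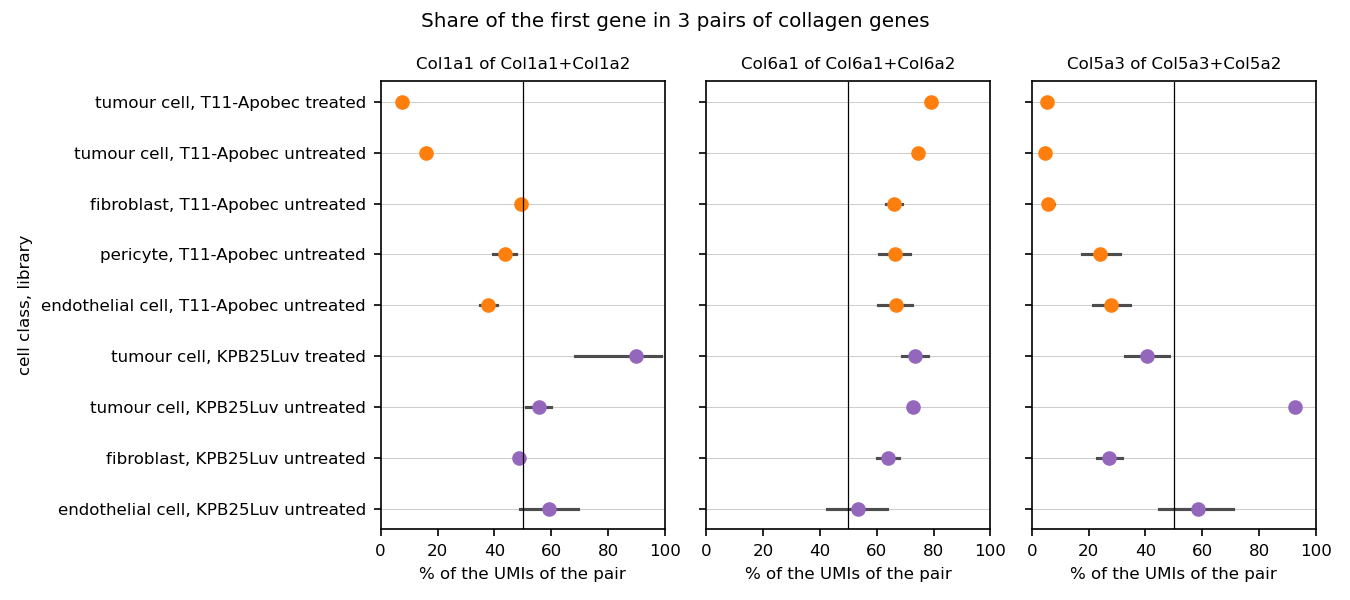
Share of the first gene in the UMIs of 3 pairs of collagen genes (x axis, percent, with 95% Clopper-Pearson interval) in each class and library (y axis), T11-Apobec in orange and KPB25Luv in purple. The Col1a1 share is 7.6% and 16.0% in treated and untreated T11-Apobec tumour cells and near 50 percent in fibroblasts, and the Col5a3 share is highest, 92.5%, in untreated KPB25Luv tumour cells. Most cells of the KPB25Luv fibroblast class leave it when Krt8 and Krt18 are added to the epithelial set.

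The study set treated against untreated tumours to follow checkpoint therapy. Treated T11-Apobec tumour cells carried 1528 CPM of collagen RNA, against 2553 CPM in untreated ones (log2 ratio -0.74, interval -0.76 to -0.72). Of 29 measured collagens 19 were more than 1.5-fold lower, 17 of them with an interval below 0, and 1 was higher, where 10.6% of all genes tested were lower and 11.7% higher. The median ratio of the measured collagens was -0.78, or -0.75 with genes at 0 in 1 library set to their bound, against -0.04 for all genes. The 1 higher gene was Col17a1, a hemidesmosome collagen, on 3 treated and 7 untreated UMIs, with an interval of -1.90 to 2.82.

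The type I chains differed by unequal amounts. Col1a1 had 829 UMIs (47.3 CPM) in treated and 10471 UMIs (159 CPM) in untreated T11-Apobec tumour cells, a log2 ratio of -1.75 (-1.85 to -1.65). Col1a2 had 574 CPM in treated and 836 CPM in untreated cells (-0.54), which is under 1.5-fold, and Col3a1 had 325 CPM in treated and 519.5 CPM in untreated cells (-0.68, interval -0.72 to -0.64). Thinned to 1000 UMIs per cell, 5.05% of treated and 14.5% of untreated cells held a Col1a1 UMI (32.9% of treated and 56.9% of untreated cells before thinning). For Col1a2 the thinned shares were 43.7% of treated and 54.1% of untreated cells (97.5% and 97.6% before thinning), while depth per cell differed. The type VI chains were lower throughout: Col6a1 had 83.0 CPM in treated and 148 CPM in untreated cells (-0.84), Col6a2 had 21.9 and 50.8 CPM (-1.21), and Col6a3 had 62.3 and 132 CPM (-1.09).

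Other chains with lower treated levels were Col18a1, with 149 CPM in treated and 291 CPM in untreated cells (-0.96), Col5a2, with 80.6 CPM in treated and 151 CPM in untreated cells (-0.91), and Col12a1, a fibril-associated collagen, with 10.5 CPM in treated and 24.9 CPM in untreated cells (-1.24). Col25a1 had 3.71 CPM in treated and 13.9 CPM in untreated cells (-1.89). Within 1.5-fold were Col8a1, with 98.3 CPM in treated and 117 CPM in untreated cells (-0.25), Col16a1, which links fibrils to other matrix, with 18.9 CPM in treated and 22.1 CPM in untreated cells (-0.22), and Col4a5, with 11.6 CPM in treated and 9.01 CPM in untreated cells (0.36). Col4a1 had 0 UMIs in treated and 137 in untreated tumour cells, at least 12.2-fold lower with a floor of 3 UMIs over the class. Its untreated level is below that of lymphocytes and is not read as a tumour-cell level, and its source was not tested. Depth per tumour cell and the level of free RNA both moved with treatment. With the lymphocyte level subtracted from each class the collagen sums were 1505 CPM in treated and 2399 CPM in untreated T11-Apobec tumour cells.

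**Figure D4:**
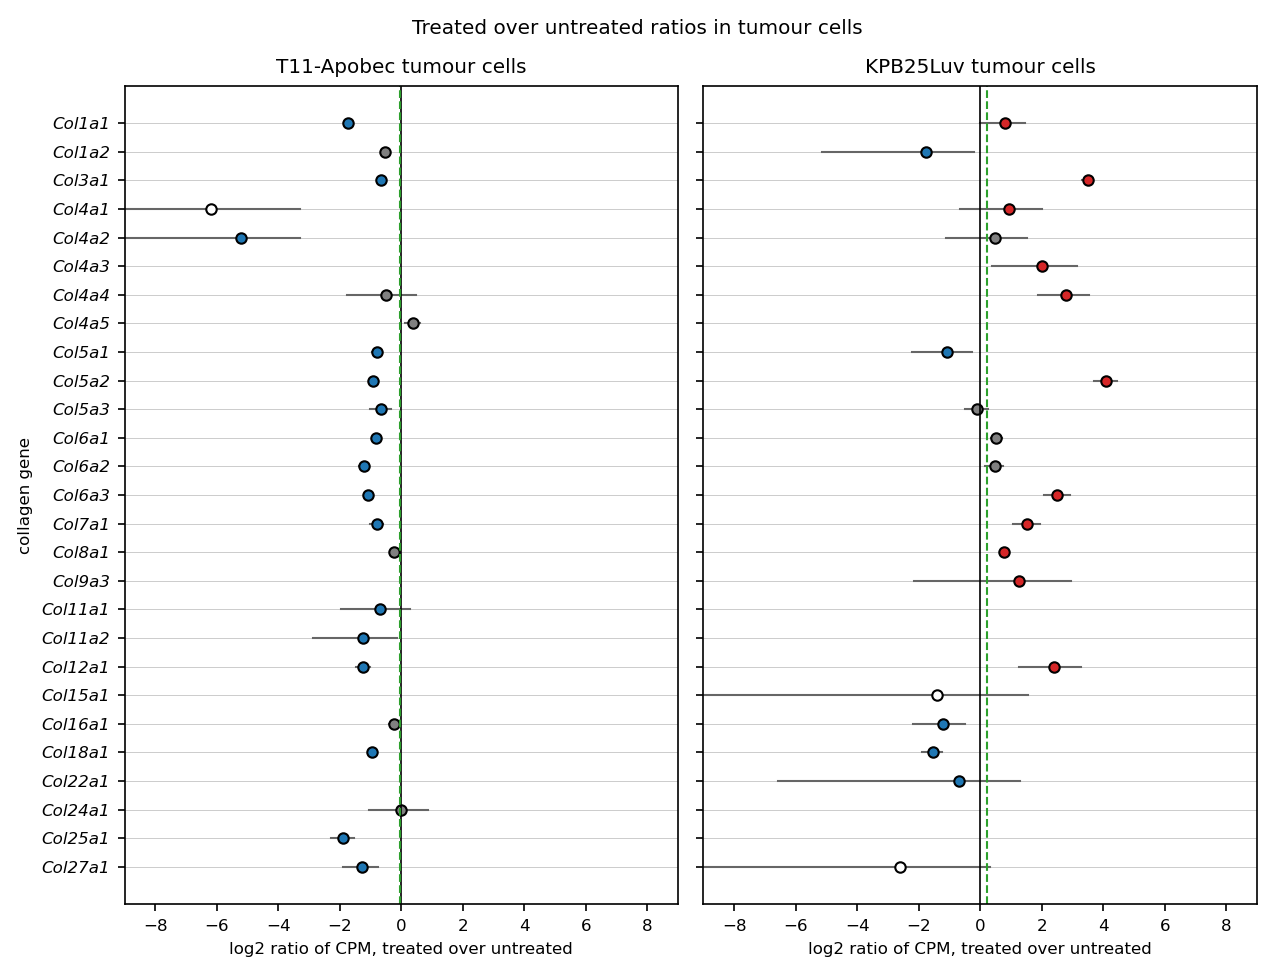
Log2 ratio of CPM, treated over untreated (x axis), with 95% counting intervals for collagens with at least 30 UMIs in both libraries together (y axis), in T11-Apobec tumour cells (left) and KPB25Luv tumour cells (right). Red points are called higher, blue lower, grey neither and white points are at 0 in 1 library, and the dashed line is the median of all genes (-0.04 on the left, 0.22 on the right). On the left Col1a1 lies at -1.75, and on the right Col3a1 and Col5a2 lie at 3.49 and 4.08.

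In KPB25Luv the treated tumour cells numbered 49, and they carried 1079 CPM of collagen RNA, against 649 CPM in untreated ones (log2 ratio 0.73, interval 0.66 to 0.81). Of 25 measured collagens 11 were higher, 8 of them with an interval above 0, and 7 were lower, 4 of them with an interval below 0, where 32.2% of all genes tested were higher and 14.7% lower. Among the 7 lower, Col27a1 had 0 treated and 83 untreated UMIs, and Col15a1 had 0 treated and 36 untreated UMIs. These 2 calls rest on the 0.5 added counts, and their intervals reach above 0. With cells thinned to 1000 UMIs, 6 were higher and 0 lower. The median ratio of the measured collagens was 0.48, against 0.22 for all genes. The 2 ratios above 3 came from few cells. Col3a1 had 377 UMIs (259 CPM) in treated and 918 UMIs (23.0 CPM) in untreated tumour cells, a log2 ratio of 3.49 (3.31 to 3.66). Of the 49 treated cells 19 held any Col3a1, the highest 77 and 68 UMIs, and without those 2 cells the ratio was 2.87. Col5a2 had 66.5 CPM in treated and 3.94 CPM in untreated cells (4.08, interval 3.70 to 4.45), from 20 treated cells, and 3.54 without the same 2 cells. Col6a3 had 39.8 CPM in treated and 7.05 CPM in untreated cells (2.51), from 11 treated cells, and Col12a1 had 7.54 CPM in treated and 1.48 CPM in untreated cells (2.40).

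The type I chains rested on few treated molecules. Col1a1 had 18 UMIs (12.3 CPM) in treated and 291 UMIs (7.30 CPM) in untreated KPB25Luv tumour cells (0.80, interval -0.02 to 1.44), and Col1a2 had 2 UMIs (1.37 CPM) in treated and 232 UMIs (5.82 CPM) in untreated cells (-1.77), 67 of the 232 from 1 cell, and the Col1a2 ratio turned to 0.19 with cells thinned to 1000 UMIs. Lymphocytes of these libraries held 0.688 CPM of Col1a1 in treated and 2.76 CPM in untreated KPB25Luv, and the Col1a2 level was not past that of lymphocytes by 1.5-fold with an interval above 0 in either library. Among other chains, Col8a1 had 263 CPM in treated and 153 CPM in untreated cells (0.78), Col7a1 had 33.6 CPM in treated and 11.7 CPM in untreated cells (1.54), and Col4a4, a type IV chain of kidney and other basement membranes, had 11.7 CPM in treated and 1.73 CPM in untreated cells (2.78), where lymphocytes held 1.05 CPM in treated and 1.79 CPM in untreated. Col6a1, with 189 CPM in treated and 131 CPM in untreated cells (0.52), and Col5a3, with 45.3 CPM in treated and 48.8 CPM in untreated cells (-0.10), were within 1.5-fold. Col18a1 was lower, with 52.1 CPM in treated and 154 CPM in untreated cells (-1.55), as were Col16a1, with 8.92 CPM in treated and 21.4 CPM in untreated cells (-1.21), and Col5a1, with 6.86 CPM in treated and 15.1 CPM in untreated cells (-1.07). A Col18a1 UMI was present in 49.0% of treated and 88.4% of untreated cells, and after thinning in 14.3% of treated and 15.2% of untreated cells, a share whose counting error is wide with 49 cells. For Col8a1 the thinned shares were 30.6% of treated and 13.9% of untreated cells (83.7% and 86.8% before thinning).

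Genes that make, cleave or bind collagen, taken from lists of known function, are given beside the members; Plod1, P3h1, Fkbp10, Lox, Tgm2, Plod2 and Lum were chosen after their values were seen. Of all genes tested in T11-Apobec tumour cells, 11.7% were higher and 10.6% lower in treated cells. There, of 15 measured genes of intracellular synthesis 0 were higher and 3 lower (Plod1, P3h1 and Fkbp10), with a median log2 ratio of -0.24. Serpinh1, the collagen chaperone HSP47, had 347 CPM in treated and 517 CPM in untreated cells (-0.58), and Fkbp10, a prolyl isomerase of the same pathway, had 44.7 CPM in treated and 82.5 CPM in untreated cells (-0.88). Of 11 measured genes of propeptide cleavage and cross-linking 3 were higher and 3 lower (median -0.28). Lox, which cross-links fibrils, had 31.5 CPM in treated and 17.4 CPM in untreated cells (0.86), and Tgm2, a transglutaminase, had 74.0 CPM in treated and 30.7 CPM in untreated cells (1.27), while Col1a1 and the type VI chains were lower. Of 9 measured collagen receptors 2 were higher and 3 lower (median -0.37), and of 9 measured fibril-binding matrix proteins 0 were higher and 5 lower (median -0.71). Among these, Sparc, a collagen-binding glycoprotein, had 675 CPM in treated and 1106 CPM in untreated cells (-0.71), and Fn1 (fibronectin) had 954 CPM in treated and 1226 CPM in untreated cells (-0.36).

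In KPB25Luv tumour cells 7 of 9 measured fibril-binding proteins were higher and 2 lower (median 2.28, against 0.22 for all genes). Of all genes tested there, 32.2% were higher and 14.7% lower. The shares of higher genes in the synthesis, cleavage and receptor lists below were near that of all genes. Tnc (tenascin C) had 232 CPM in treated and 38.0 CPM in untreated cells (2.61), Sparc had 369 CPM in treated and 128 CPM in untreated cells (1.53), and Fn1 had 1353 CPM in treated and 666 CPM in untreated cells (1.02). Lum (lumican, which binds fibrils) had 87.8 CPM in treated and 0.50 CPM in untreated cells (7.42). Of 16 measured genes of intracellular synthesis 6 were higher and 2 lower (median 0.29), with Plod2, a lysyl hydroxylase, at 78.9 CPM in treated and 26.2 CPM in untreated cells (1.60) and Serpinh1 near level at 355 CPM in treated and 353 CPM in untreated cells. Of 11 of cleavage and cross-linking 4 were higher and 3 lower (median -0.19), and of 6 measured receptors 2 were higher and 2 lower (median -0.17). Between the untreated models, 7 of 9 fibril-binding proteins were higher and 0 lower in T11-Apobec than in KPB25Luv tumour cells (median 1.20). In that comparison 24.8% of all genes tested were higher and 35.3% lower. Of 16 synthesis genes 6 were higher and 2 lower (median 0.48). Of 11 cleavage and cross-linking genes 7 were higher and 1 lower (median 0.91), and of 9 receptors 5 were higher and 3 lower (median 0.92).

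T cells are not known as a source of fibrillar collagen, and their UMIs of the abundant collagens serve as a measure of free RNA in each library. The collagen sum in T cells was 25.4 CPM in treated and 149 CPM in untreated T11-Apobec, and 11.8 CPM in treated and 104 CPM in untreated KPB25Luv, log2 ratios of -2.56 and -3.13. These levels are relative to the RNA of the T cells, whose median UMIs were 3483 in treated and 1765.5 in untreated T11-Apobec. They also differ by class: untreated B cells stood at 293 CPM in T11-Apobec and 86.8 CPM in KPB25Luv, and untreated neutrophils at 266 CPM in T11-Apobec and 187 CPM in KPB25Luv. The treated KPB25Luv sum was led by other genes, Col15a1 (44 UMIs), Col6a3 (42), Col23a1 (32), Col4a4 (23) and Col11a2 (20) of 257 UMIs, so this sum and its ratio are not a level of free RNA alone. All 11 collagens measured in T11-Apobec T cells were lower in the treated library, 8 of them with an interval below 0. There 18.6% of all genes tested were lower and 12.8% higher. In KPB25Luv T cells 15 of 19 were lower, 14 of them with an interval below 0, and 2 were higher. There 18.4% of all genes tested were lower and 15.3% higher. In the untreated libraries the leading genes were also among the highest in tumour cells: Col1a2 (7.18 CPM in treated, 31.8 CPM in untreated) and Col3a1 (4.86 CPM in treated, 47.2 CPM in untreated) in T11-Apobec T cells, and in KPB25Luv T cells Col18a1 (0.689 CPM in treated, 21.4 CPM in untreated) and Col6a1 (0.275 CPM in treated, 20.04 CPM in untreated). In T11-Apobec macrophages 17 of 18 measured collagens were lower in treated, 15 of them with an interval below 0, and 1 was higher. There 12.1% of all genes tested were lower and 11% higher. In KPB25Luv macrophages 15 of 17 were lower, 7 of them with an interval below 0, and 1 was higher. There 29.3% of all genes tested were lower and 18.5% higher. Of those 17 collagens 11 were at 0 in 1 of the libraries, and treated KPB25Luv macrophages held 17 collagen UMIs in all. How many cells of each class were captured moved with these values: tumour cells were 674 treated and 4934 untreated in T11-Apobec, and 49 treated and 1739 untreated in KPB25Luv. The part of free RNA in the tumour-cell values was not tested beyond the subtraction given above.

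**Figure D5:**
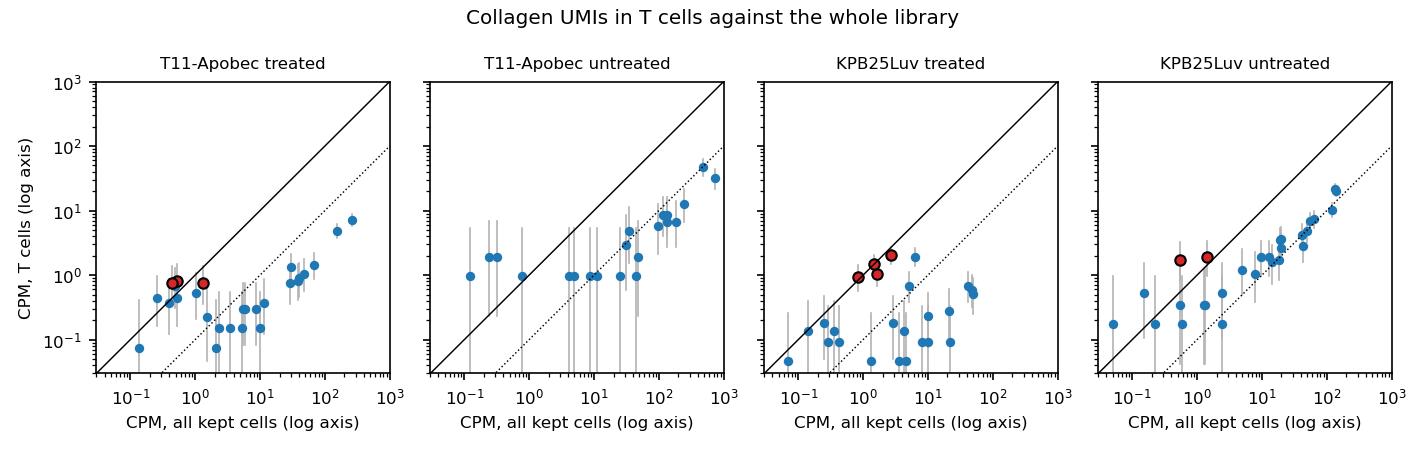
CPM in T cells against CPM over all kept cells (both log axes) for each collagen with at least 1 UMI in T cells, 1 panel per library, with 95% Poisson intervals, the solid line marking equal levels and the dotted line 10% of them. Red points have at least 10 UMIs in T cells and more than 50% of the library level, and the abundant collagens of untreated T11-Apobec, such as Col3a1 (47.2 CPM), lie near or below the dotted line.

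Col14a1, a fibril-associated collagen, stood far above lymphocytes in macrophages of both T11-Apobec libraries and of untreated KPB25Luv, and was singled out after its values were seen. It had 141 UMIs (19.5 CPM) in treated and 654 UMIs (61.2 CPM) in untreated T11-Apobec macrophages, a log2 ratio of -1.65, and 88 UMIs (16.6 CPM) in untreated KPB25Luv macrophages. T cells of the same libraries held 0.150 CPM in treated and 0.963 CPM in untreated T11-Apobec, and 0.174 CPM in untreated KPB25Luv. In T11-Apobec macrophages it was the 1 collagen more than 1.5-fold above lymphocytes with an interval above 0. This was among 16 measured in treated and 18 in untreated cells. Fold alone takes in others, such as Col27a1, with 42 UMIs (3.93 CPM) in untreated macrophages and 1 UMI (0.963 CPM) in untreated T cells. In untreated KPB25Luv macrophages 5 of 20 were above by both fold and interval. Col14a1 had a log2 ratio over lymphocytes of 6.10, and Col3a1, Col5a1, Col5a3 and Col6a2 had ratios of 0.63 to 1.18. The thinned share of macrophages with a Col14a1 UMI was 2.04% in treated and 5.83% in untreated T11-Apobec (14.3% in treated and 21.1% in untreated before thinning).

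All 44 collagen genes were found in the GENCODE annotation of GRCm38, on 15 chromosomes, and 8 neighbouring pairs lay within 100 kb of each other. Col1a1 lies at chr11:94936224-94953042 (plus strand) and Col1a2 at chr6:4504814-4541544 (plus strand), so the chains of type I are on different chromosomes. Col3a1 (chr1:45311538-45349706, plus strand) and Col5a2 (chr1:45374321-45503282, minus strand) lie with their 3' ends facing, 24614 bases apart, and were both lower in treated T11-Apobec and both higher in treated KPB25Luv tumour cells (above). Col4a1 (chr8:11198423-11312826, minus strand) and Col4a2 (chr8:11312805-11449287, plus strand) have their starts facing, with an overlap of 22 bases, and both led in endothelial cells. Col6a2 and Col6a1 lie on the same strand of chromosome 10, with a gap of 85161 bases. Neither differed between the models in tumour cells by more than 1.5-fold, while Col6a3 lies elsewhere and did. Col4a6 and Col4a5 on chromosome X have their starts facing, 1308 bases apart. Untreated T11-Apobec tumour cells held 0 Col4a6 and 593 Col4a5 UMIs. These pairs were picked from the 8, and a link between position and level was not tested.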

How the data were processed

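Counts of UMIs per gene and cell from 4 single-cell libraries (10x 3' version 2 chemistry per the labels' protocols) were deposited by the authors as raw whole-number counts from Cell Ranger 3.0.2, per the file headers, with mm10 per the submitters' processing notes. The aligner settings and annotation are not given in the sources used here. Barcodes with at least 200 genes and at most 10% mitochondrial UMIs were kept. Doublets were removed as the highest Scrublet scores (scanpy 1.11.5), at 0.8% per 1000 barcodes, since the tool's own threshold marked few cells in some libraries. Cells were named by marker sets without collagens (at least 3 UMIs and 2 markers, and 3 times the other sets). CPM is the class's UMIs per 1000000, given for classes of at least 20 cells, with exact Poisson intervals of 95%. Log2 ratios add 0.5 counts and carry exact conditional binomial intervals. A gene is called past 1.5-fold on this ratio, with at least 10 UMIs in both classes together. The floor of 3 counts for a 0 count enters only the stated bounds and not the calls. Shares carry Clopper-Pearson intervals. With 1 library per group no test between conditions was run. The ratio step was tested on simulated data. Genes named are the 12 with the most UMIs, the 5 highest in each tumour or stromal class, and the 4 largest and smallest ratios with at least 30 UMIs, plus those said to be chosen after their values were seen. The members and lists were chosen with earlier results of these data known. Alternatives were other gates, filters, thresholds and scalings. Software was scipy 1.17.1, numpy 2.4.6, matplotlib 3.10.9 and pandas 2.3.3 under Python 3.11.15.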

Additional observations from a re-analysis of the deposited data

Results flagged for a closer look

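For 5 collagens the treated over untreated log2 ratio in tumour cells pointed in opposite directions in the models, past 1.5-fold and with an interval clear of 0 in each. Col1a1 and Col4a1 were also called lower in treated T11-Apobec and higher in treated KPB25Luv tumour cells. Their KPB25Luv intervals held 0 (-0.02 to 1.44 for Col1a1, -0.66 to 2.00 for Col4a1), and they are not among the 5. Of all genes tested, 10.6% were lower in treated T11-Apobec and 32.2% were higher in treated KPB25Luv tumour cells. The share of all genes that did both was not counted. Col3a1 stood at -0.68 in T11-Apobec and 3.49 in KPB25Luv. Col5a2 stood at -0.91 in T11-Apobec and 4.08 in KPB25Luv. Col6a3 stood at -1.09 in T11-Apobec and 2.51 in KPB25Luv. Col7a1 stood at -0.80 in T11-Apobec and 1.54 in KPB25Luv. Col12a1 stood at -1.24 in T11-Apobec and 2.40 in KPB25Luv. The difference between the models was not tested, since each group has 1 library. The KPB25Luv treated values come from 49 cells.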

How the results depend on the processing

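Of the values for single genes, 259 kept their direction and side under the alternatives, 29 moved and 1 reversed: Col1a2 in KPB25Luv tumour cells stood at 0.19 after thinning to 1000 UMIs. Of the summaries 118 were the same and 35 moved. In T11-Apobec tumour cells the collagens called higher (1) became 2 with the stricter gate, 0 with thinning, at 50 UMIs, with lymphocyte counts subtracted, at 2-fold and in cells with the neomycin resistance transcript alone, and 4 with no minimum, and those called lower (19) became 10 at 2-fold. In KPB25Luv tumour cells those higher (11) became 6 with thinning and 26 with no minimum, those lower (7) became 0 with thinning, and the median (0.48) became 1.29 with no minimum. Between the untreated models those higher (18) became 11 with thinning, those lower (8) became 2 with thinning, 14 with no minimum, 3 at 50 UMIs and 5 with subtraction, and the median (0.92) became 0.11 with no minimum and 1.66 with subtraction. Collagen sums were 1561 CPM (stricter gate) and 1505 CPM (subtraction) in treated T11-Apobec tumour cells, and 2571 CPM and 2399 CPM in untreated ones. In untreated T11-Apobec, fibroblasts had 31191 CPM with the stricter gate and 19619 CPM with doublets kept, pericytes 9788 CPM with the stricter gate and 8355 CPM without cells carrying the neomycin resistance transcript, and endothelial cells 3545 CPM with subtraction and 3917.5 CPM without such cells. In KPB25Luv, tumour cells had 1174 CPM in treated and 708 CPM in untreated with Krt8 and Krt18 added, and untreated ones 639 CPM with the stricter gate and 550.2 CPM with subtraction. Untreated KPB25Luv fibroblasts had 7060.0 CPM with the stricter gate and endothelial cells 3822 CPM with doublets kept. The cause of these shifts was not tested. The alternatives that add the keratins, leave out stromal cells with the neomycin resistance transcript or leave out the 2 KPB25Luv cells richest in Col3a1 were chosen after seeing the data. No paired analysis was possible because each group has 1 library with no replicate number. The treated KPB25Luv tumour-cell values rest on 49 cells.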

Other observations

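Some collagens stood out in cells other than tumour and stroma, and were chosen after their values were seen. Epithelial cells of the T11-Apobec libraries, which are not the tumour cells, had 162 CPM of Col8a1 in treated and 54.9 CPM in untreated, while Col6a3 had 65.8 CPM in treated and 200.3 CPM in untreated. Col1a2 there had 1 UMI in treated cells and 67 UMIs in untreated cells, where 10 of 49 cells held it and 2 cells held 25 and 21 of the UMIs. Untreated KPB25Luv neutrophils held 56 UMIs of Col15a1 (64.6 CPM) over 48 of 700 cells. In treated KPB25Luv T cells Col15a1 had 44 UMIs (2.02 CPM) and Col23a1, a membrane-spanning collagen, had 32 UMIs (1.47 CPM), which is 74.2% and 99.0% of the level over all kept cells, against 1.67% for Col3a1. Col6a4 had 13 UMIs (7.37 CPM) in treated T11-Apobec B cells and 6 UMIs (0.449 CPM) in T cells of that library.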
